A study of Mus musculus with 4 samples.

Results

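Hepatocyte identity transcription factors are described here in mouse liver labelled Ern1-LKO and in wild type (WT) liver. They were chosen by name, and the 9 genes, Hnf4a, Foxa1, Foxa2, Foxa3, Cebpa, Cebpb, Onecut1, Prox1 and Nr5a2, were read from the authors' deposited table of 25572 loci. All 9 were found, in 10 rows of the table, since Foxa3 has 2. RNA sequencing was done on whole liver of 8-week-old C57BL/6J mice, with 2 libraries labelled Ern1-LKO (a liver-specific knockout of Ern1) and 2 libraries of WT mice that served as its controls. Ern1 encodes IRE1α, a sensor of endoplasmic reticulum stress whose RNase splices Xbp1 mRNA. The sources used here do not give the promoter that drives any Cre, or whether the WT mice carried a floxed allele. The table holds 1 FPKM value (a fragment count scaled by transcript length and by sequencing depth) per genotype, so the values of single mice and their spread cannot be given, and a difference may come from 1 mouse of the 2. The error printed is the standard error (SE) that the authors' test statistic implies. Genes are named as called at a q under 0.05, where q is the authors' p-value after adjustment over all 13320 tested loci.

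Hepatocyte identity is held by a network of transcription factors that bind each other's genes as well as the genes of secreted plasma proteins and of liver metabolism. HNF4α, a nuclear receptor, is the factor on which most hepatocyte genes depend; the FOXA proteins open chromatin; C/EBPα and C/EBPβ are leucine zipper factors of metabolism and of the acute phase and regenerative responses. ONECUT1 (HNF6) acts in hepatocytes and in bile duct formation, and growth hormone induces it in rat liver. NR5A2 (LRH-1) drives bile acid and cholesterol genes, and PROX1 is a co-repressor that binds HNF4α and NR5A2.

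Promoter sequences are shown for the gene that was called (Onecut1) and for a FOXA gene among its reported targets (Foxa2). Foxa2 has several RefSeq starts, and only the window that holds the ONECUT letters is shown. Both starts of Hnf4a are shown, since the deposited row bears on which start was measured. Each run is the 250 bases before a RefSeq transcript start on GRCm38.p6 (mm10), read 5′ to 3′ on the strand of the gene, and capitals mark ATTGAT or ATCAAT, the core letters of a ONECUT site. The windows are chr9:74861671-74861920 on the plus strand, chr2:148046970-148047219 on the minus strand, chr2:163506607-163506856 and chr2:163546905-163547154 on the plus strand.
Onecut1: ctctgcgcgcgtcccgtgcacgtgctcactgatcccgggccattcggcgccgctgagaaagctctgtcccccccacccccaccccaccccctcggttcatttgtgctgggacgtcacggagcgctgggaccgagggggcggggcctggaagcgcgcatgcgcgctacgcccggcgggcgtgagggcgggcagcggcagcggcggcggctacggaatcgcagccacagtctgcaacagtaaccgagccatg
Foxa2: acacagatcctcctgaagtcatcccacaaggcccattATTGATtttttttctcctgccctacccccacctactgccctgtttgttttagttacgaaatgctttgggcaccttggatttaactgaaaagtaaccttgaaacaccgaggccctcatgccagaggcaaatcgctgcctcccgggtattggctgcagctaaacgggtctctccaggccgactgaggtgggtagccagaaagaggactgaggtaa
Hnf4a, distal start: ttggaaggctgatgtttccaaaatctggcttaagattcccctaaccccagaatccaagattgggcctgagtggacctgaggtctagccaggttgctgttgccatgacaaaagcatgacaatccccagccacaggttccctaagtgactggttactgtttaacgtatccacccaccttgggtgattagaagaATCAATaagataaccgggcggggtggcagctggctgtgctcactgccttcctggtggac
Hnf4a, proximal start: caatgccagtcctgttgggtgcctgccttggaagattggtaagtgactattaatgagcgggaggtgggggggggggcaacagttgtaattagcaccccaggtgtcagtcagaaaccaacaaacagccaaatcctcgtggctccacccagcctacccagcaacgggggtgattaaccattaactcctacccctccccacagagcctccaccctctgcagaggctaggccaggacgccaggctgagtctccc

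RefSeq promoters were matched for all 9 factors, 14 windows in all. The ONECUT letters stood in 2 of the 14, and in 6.72% of 32851 mouse promoters. They lay at -213 to -208 bases from 1 of the Foxa2 starts (148046969) and at -59 to -54 from the distal Hnf4a start. The windows of the other Foxa2 starts, at 148045464 and 148045948, and of the proximal Hnf4a start held none. The other motifs were searched on both strands in the same windows. TGTTTAC, of the FOXA site, was found in the Foxa1 window (3.17% of all promoters) and TTGCNNAA, of the C/EBP site, in 1 of the Nr5a2 windows (9.56%). TTCNNNGAA, bound by STAT5 (7.02% of all promoters), TGACGTG, of the XBP1 site (1.65%), and CAAAGTCCA, of the HNF4α site (0.384%), were in none of the 14. No hit overlapped another, and these are matches of letters only.

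Ern1 itself, which checks the labels only where reads fall in a deleted part, was at 30.2 FPKM in Ern1-LKO and 21.4 FPKM in WT, with q = 0.172 in the authors' deposited table. The Ern1 value itself therefore does not check the genotype, and every direction below is that of libraries labelled Ern1-LKO. Dnajb9 and Sec61b, which XBP1 is reported to induce, were called lower, at 15.4 and 92.6 FPKM in Ern1-LKO and at 42.5 and 235 FPKM in WT, each with q = 0.00343 in the authors' deposited table. Xbp1 was at 79.2 FPKM in Ern1-LKO and 77.3 FPKM in WT and was not called, and a gene-level value does not separate its spliced form. Among all tested loci 365 were called, 211 higher and 154 lower, and the median log2 fold change over 10931 loci with at least 1 FPKM in a genotype was -0.02, with an SD of 0.37.

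The 9 factors differed widely in level. Cebpb, Cebpa and Hnf4a stood highest, at 216, 198 and 181 FPKM in Ern1-LKO, against 177, 202 and 191 FPKM in WT. By mean FPKM they lay at percentiles 96.3, 96.4 and 96.1 of the tested loci. Foxa3 came next in both genotypes, at 41.0 FPKM in Ern1-LKO and 39.4 FPKM in WT. The other 5 lay between 9.16 and 21.4 FPKM in Ern1-LKO, and between 6.06 and 12.7 FPKM in WT. Onecut1 had rank 5 of the 9 in Ern1-LKO and was last in WT, and Prox1 was last in Ern1-LKO and had rank 5 in WT. FPKM is scaled by transcript length, so these orders compare genes, but no spread between mice is at hand with which to tell neighbours in the order apart.

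**Figure D1:**
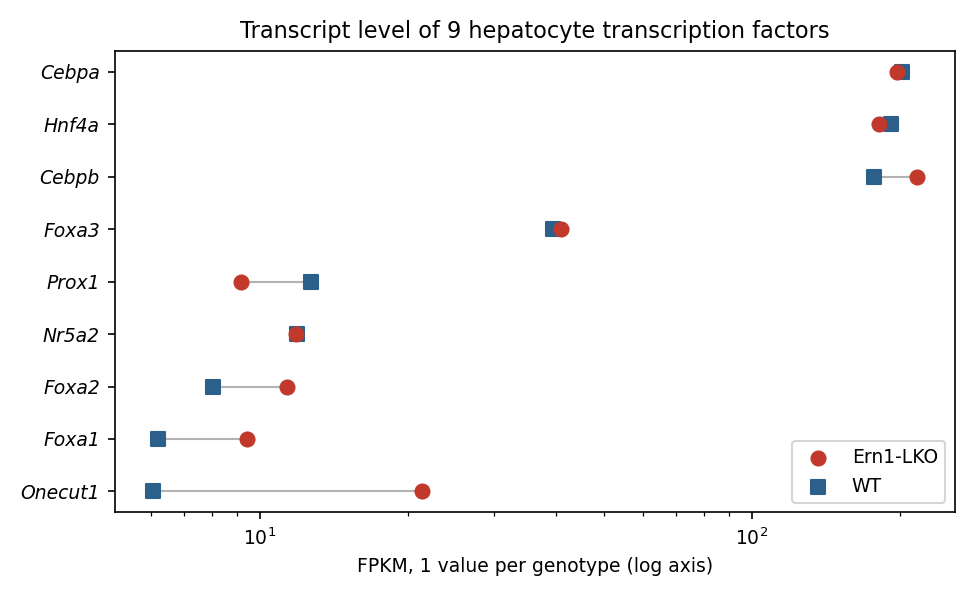
FPKM of the 9 factors on a log axis, 1 value per genotype, with Ern1-LKO as red circles and WT as blue squares, in the order of the WT level. The pair of points stands widest apart for Onecut1, at 21.4 FPKM in Ern1-LKO and 6.06 FPKM in WT, while those of Nr5a2, Cebpa and Hnf4a nearly coincide.

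Of the 8 factors that the authors tested, 1 was called, Onecut1, and it was higher in Ern1-LKO. That is 12.5% of the 8, against 2.74% of all tested loci called in either direction and 1.58% called higher. At an unadjusted p under 0.05 the members were 4 of 8, Onecut1, Foxa1 and Foxa2 above WT and Prox1 below, against 10.3% of all tested loci (5.74% higher and 4.53% lower). The median difference of the 8 on the log2(FPKM + 1) scale was 0.17, against -0.0084 over all tested loci. Positive and negative values were mixed, with 5 of 8 above WT and 3 below. Whole liver was measured, so fewer cells of a type and less RNA per cell cannot be told apart at any of these genes.

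**Figure D2:**
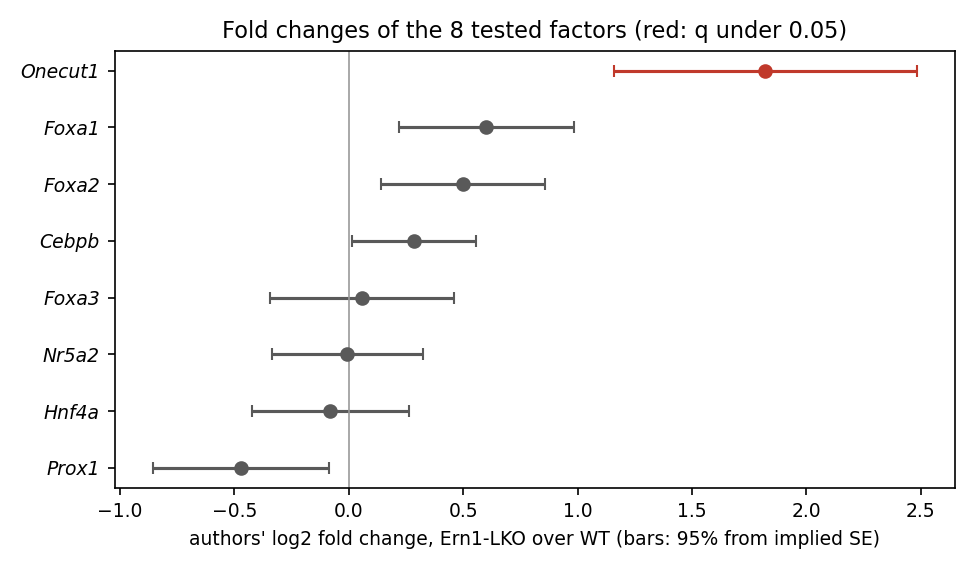
The authors' log2 fold change of Ern1-LKO over WT for the 8 tested factors, with 95% intervals from the implied SE; red marks q under 0.05. Onecut1 stands at 1.82, Foxa1 and Foxa2 at 0.60 and 0.50, and Prox1 at -0.47; Cebpa is not shown because the authors' test failed there.

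Onecut1 rose to 21.4 FPKM in Ern1-LKO, against 6.06 FPKM in WT. The ratio was 3.53, with a 95% interval of 2.23 to 5.59. Its log2 fold change was 1.82 (implied SE 0.34), and its p of 5e-05 and q of 0.00343 are the smallest of the authors' deposited table, reached by 194 loci. Of 6872 tested loci with at least 5 FPKM in a genotype, 16, Onecut1 included, had a log2 fold change this high, and 9 of the 16 were called. Its implied SE was larger than at 94.4% of those loci, where the median SE was 0.18. The called single genes of nearest log2 fold change were Fbln1 (1.81), Chac1 (1.79), Pdlim3 (1.78) and Cpe (1.78), a likeness that rests on 2 genotype values and says nothing of control. Of these, Chac1 was at 7.98 FPKM in Ern1-LKO and 2.31 FPKM in WT, and the other three were at 1.11 to 2.41 FPKM in Ern1-LKO and 0.32 to 0.70 FPKM in WT.

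The row named Onecut1 does not separate that gene from a noncoding neighbour. It covers chromosome 9, 74856714 to 74896566 (mm10), and reaches 5207 bases before and 4785 bases past the GENCODE M21 gene, which has 2 exons on the plus strand. The lincRNA Gm20649 lies on the same strand and overlaps 34763 bases of the row. Of the 3908 distinct 50-base words in the longest coding Onecut1 transcript, 54.4% also occur in transcripts of other genes, Gm20649 and Onecut3. No row of the table carries the name Gm20649, so the share of the rise that belongs to each was not tested. Gm16551, another noncoding gene on the plus strand, begins upstream and in GENCODE M21 overlaps 3421 bases of the Onecut1 row. Its own row ends before the Onecut1 row and was not called, at 5.55 FPKM in Ern1-LKO and 6.49 FPKM in WT (q = 0.904 in the authors' deposited table). The paralogs Onecut2 and Onecut3 stood at 5.37 and 0 FPKM in Ern1-LKO, and at 4.57 and 0 FPKM in WT, and neither was called.

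**Figure D3:**
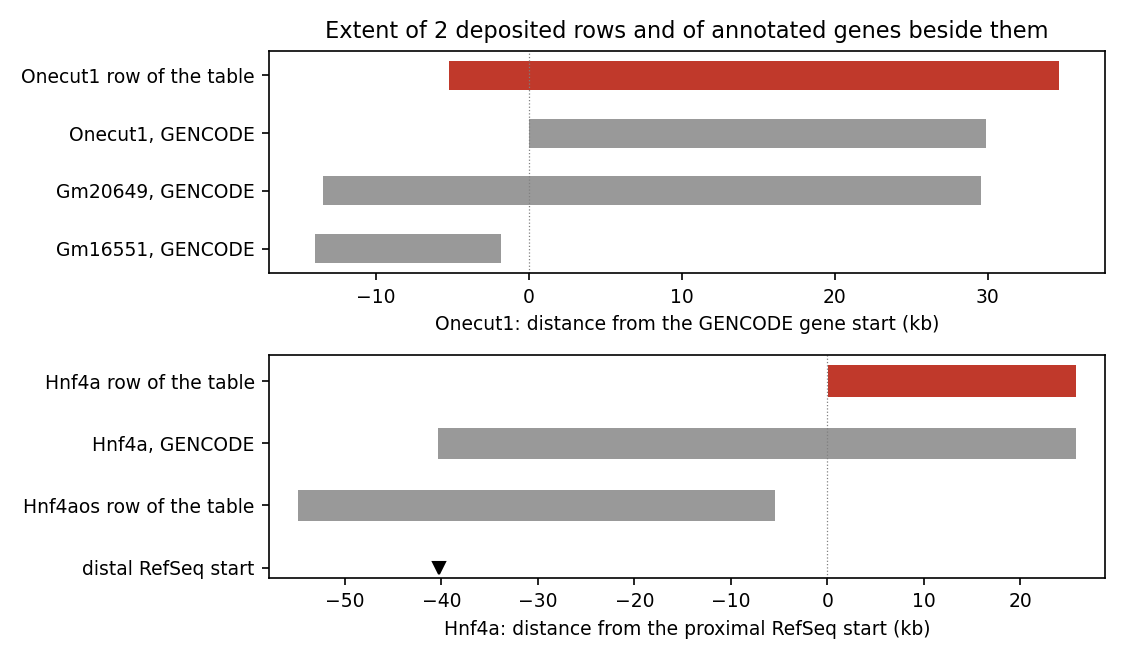
Extents of the deposited Onecut1 and Hnf4a rows (red) and of annotated genes or rows beside them (grey), in kb from the GENCODE Onecut1 start and from the proximal RefSeq Hnf4a start; both genes read from left to right. Gm20649 spans nearly all of Onecut1, and the Hnf4a row begins at the proximal start, 40298 bases downstream of the distal one (triangle).

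Onecut1 is also made by bile duct cells, so duct markers are given beside it. None of 8 tested bile duct markers was called in the authors' Cuffdiff test, 1 was higher and 1 lower at an unadjusted p under 0.05, and 5 of 8 lay above WT. Their summed level over 11 genes was 41.0 FPKM in Ern1-LKO and 48.2 FPKM in WT, most of it Spp1 (30.3 and 37.2 FPKM). The keratins Krt19 and Krt7 stood at 1.61 and 0.57 FPKM in Ern1-LKO and at 1.11 and 0.55 FPKM in WT.

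Among the FOXA genes, Foxa1 and Foxa2 lay above WT without passing the threshold, and Foxa3 lay near it. Foxa1, on chromosome 12, 57537717 to 57547764, was at 9.42 FPKM in Ern1-LKO and 6.21 FPKM in WT. Its log2 fold change was 0.60 with an implied SE of 0.19 (p = 0.00265 and q = 0.0793, from the authors' deposited table). Foxa2, on chromosome 2, 148042877 to 148046969, was at 11.4 FPKM in Ern1-LKO and 8.04 FPKM in WT. Here the log2 fold change was 0.50 with an implied SE of 0.18 (p = 0.0084 and q = 0.172, from the authors' deposited table). The 95% intervals of the ratio were 1.16 to 1.98 at Foxa1 and 1.10 to 1.81 at Foxa2. Foxa1 and Foxa2 therefore differed between the profiles by more than the implied error of a single gene, but not after adjustment over all tested loci.

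Foxa3, the FOXA gene of highest level in adult liver, is listed at chromosome 7, 19003905 to 19023543. Its main row gave a ratio of 1.04 (95% interval 0.787 to 1.37, q = 0.999 in the authors' deposited table). The listed span reaches 9379 bases past the end of the GENCODE M21 gene. It overlaps 2734 bases of Irf2bp1, a coding gene on the opposite strand. Irf2bp1 has its own row at the same coordinates, at 8.29 FPKM in Ern1-LKO and 7.54 FPKM in WT, and was not called. Foxa3 shared no 50-base word with transcripts of other genes. The 3 FOXA genes summed to 61.8 FPKM in Ern1-LKO and 53.7 FPKM in WT, of which Foxa3 made up 66.3% in Ern1-LKO and 73.4% in WT. No 50-base word was shared between any of the 9 factors, so reads of that length or more from the exons of one FOXA gene cannot match another exactly.

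Hnf4a, which encodes the nuclear receptor at the centre of the network, was at 181 FPKM in Ern1-LKO and 191 FPKM in WT. The log2 fold change was -0.08 with an implied SE of 0.18, and it was not called (q = 0.999 in the authors' deposited table). The 95% interval of the ratio was 0.746 to 1.20. The row covers chromosome 2, 163547188 to 163572907, and begins 33 bases after the proximal RefSeq start, which is the start used in adult liver. The distal start, used in fetal liver, pancreas and gut, lies outside it, so transcripts begun there add to this value only through exons shared downstream. Hnf4aos, an antisense RNA whose row spans the distal start and ends 5467 bases before the Hnf4a row, was at 6.46 FPKM in Ern1-LKO and 5.19 FPKM in WT (q = 0.893 in the authors' deposited table).

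With Hnf4a, the C/EBP genes were the most abundant of the set in both genotypes. Cebpb, which rises in the acute phase and in regenerating liver, was at 216 FPKM in Ern1-LKO and 177 FPKM in WT, a ratio of 1.22. It was not called, with a log2 fold change of 0.29, a p of 0.0837 and a q of 0.611 by the authors' deposited table. The implied SE of 0.14 corresponds to a normal p of 0.0393, less than the deposited one, so the bar drawn for Cebpb is too short. Cebpa, which holds hepatocytes in their resting metabolic state, was at 198 FPKM in Ern1-LKO and 202 FPKM in WT, a ratio of 0.977. Cebpa was the single locus of the table whose test is marked as failed, so it has no p and no error. By these levels Cebpb stood at 1.09 times Cebpa in Ern1-LKO and at 0.877 times Cebpa in WT, a change of order with no test. Both genes have 1 exon, and each overlaps a gene on the opposite strand in GENCODE M21: Tmem189 shares 18.1% of the 50-base words of Cebpb, and Gm45091 shares 0.116% of those of Cebpa. The sources used here do not say whether reads were assigned by strand.

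Prox1 lay below WT and Nr5a2 was level. Prox1, on chromosome 1, 190118332 to 190176027, was at 9.16 FPKM in Ern1-LKO and 12.7 FPKM in WT. It was not called, with a log2 fold change of -0.47 and an implied SE of 0.20 (p = 0.0171 and q = 0.269, from the authors' deposited table). The 95% interval of its ratio was 0.552 to 0.941. Its row overlaps 5732 bases of the antisense gene Prox1os, which shares 1.07% of its 50-base words. Prox1 also marks lymphatic endothelium, whose 5 measured markers summed to 14.4 FPKM in Ern1-LKO and 11.9 FPKM in WT. The largest difference was at Reln, with 5.67 FPKM in Ern1-LKO and 3.94 FPKM in WT. Reln is also counted here as a stellate cell and fibroblast marker. Of the 5 lymphatic markers 1 was called, or 20% against 2.74% of all tested loci. This was Mmrn1, which was higher, at 0.40 FPKM in Ern1-LKO and 0.11 FPKM in WT. Of the others, Lyve1 lay below WT, at 2.58 FPKM in Ern1-LKO and 2.88 FPKM in WT, and the rest lay above it, none of them called. The part of lymphatic cells in the Prox1 value was not tested.

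Nr5a2, on chromosome 1, 136842571 to 136960987, was at 11.9 FPKM in both genotypes. Its log2 fold change was -0.0069 (implied SE 0.17, q = 0.999 in the authors' deposited table), with a 95% interval of the ratio of 0.792 to 1.25. Nr5a2 thus stood at 1.29 times the level of Prox1, its reported co-repressor, in Ern1-LKO and at 0.938 times in WT, which was not tested.

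**Figure D4:**
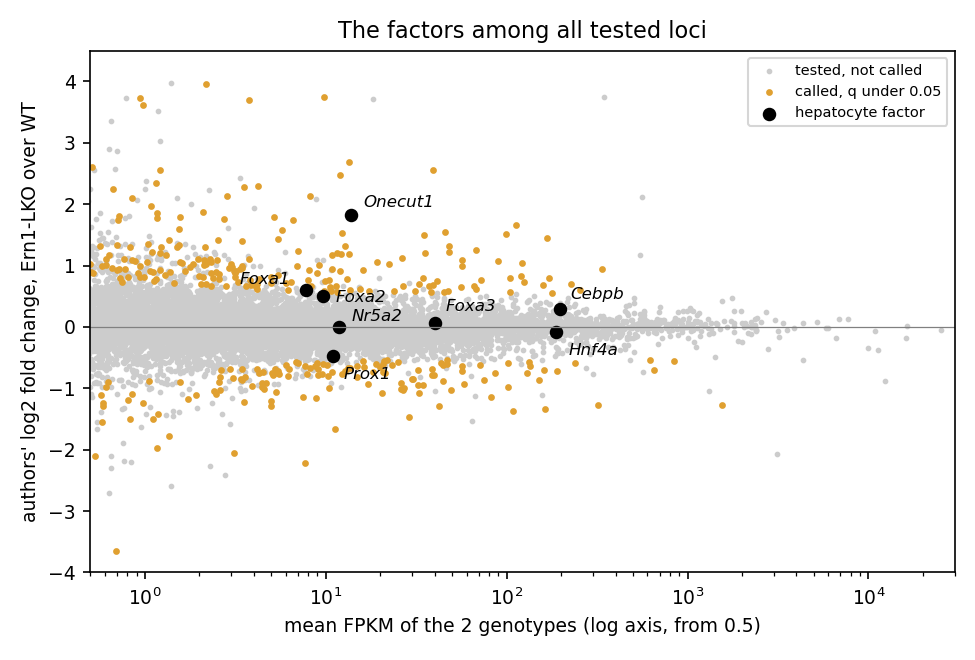
Log2 fold change of Ern1-LKO over WT against mean FPKM (log axis) for tested loci from 0.5 FPKM, with called loci in orange and the 8 tested factors in black; loci with a 0 in a genotype or beyond the vertical axis are not drawn. Onecut1 at 1.82 lies in the sparse upper edge at its level, and the other 7 lie within the body of uncalled loci.

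Other transcription factors of the liver network were read from 3 lists. Of 54 tested genes 6 were called, 3 higher and 3 lower, or 11.1% against the 2.74% of all tested loci. Their median difference was -0.045 on the log2(FPKM + 1) scale, against -0.0084 over all tested loci. None had a log2 fold change as high as that of Onecut1. Hhex, a homeobox factor of liver and duct formation, was at 75.3 FPKM in Ern1-LKO and 37.6 FPKM in WT, and the forkhead gene Foxq1 at 35.9 and 16.6 FPKM. The log2 fold changes in the authors' deposited table were 1.12 for Foxq1 (implied SE 0.16) and 1.0 for Hhex (implied SE 0.17), each with q = 0.00343. Tbx3, a pericentral T-box factor, and Atf5 were lower, at 3.18 and 107 FPKM in Ern1-LKO and at 5.11 and 159 FPKM in WT (q = 0.0349 and 0.0493 in the authors' deposited table).

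Of 20 tested nuclear receptors 1 was called, or 5% against 2.74% of all tested loci. It was Nr0b2, which encodes SHP, an orphan receptor that represses HNF4α and NR5A2. It fell to 24.5 FPKM in Ern1-LKO, against 39.9 FPKM in WT (log2 fold change -0.70, implied SE 0.18, q = 0.00343 in the authors' deposited table). Rxra, the shared dimer partner, was at 108 FPKM in Ern1-LKO and 102 FPKM in WT and was not called. Of 12 other C/EBP and leucine zipper genes 1 was called, or 8.33% against 2.74% of all tested loci. This was Cebpe, a C/EBP of granulocytes, at 7.98 FPKM in Ern1-LKO and 4.82 FPKM in WT (q = 0.048 in the authors' deposited table). Of the neutrophil markers, 3 of 3 tested genes lay below WT. None was called, and 1 was lower at an unadjusted p under 0.05 in the authors' Cuffdiff test. The summed level over 8 neutrophil genes, mostly S100a8 and S100a9, was 12.9 FPKM in Ern1-LKO and 22.8 FPKM in WT. The cells that the Cebpe value came from were not tested. Cebpd was just outside the threshold, at 5.27 FPKM in Ern1-LKO and 3.06 FPKM in WT (q = 0.0523 in the authors' deposited table).

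Genes reported as targets of the factors lay on both sides of WT. Over 5 target lists, 70 tested genes that are not among the 9 factors gave 3 called higher and 2 called lower, 7.14% against the 2.74% of all tested loci. At an unadjusted p under 0.05, 9 were higher and 9 lower, 25.7% against 10.3% of all tested loci. They had a median difference of -0.0027 on the log2(FPKM + 1) scale, against -0.0084 over all tested loci. Cyp7a1, whose enzyme sets the rate of bile acid synthesis, is on all 5 lists and rose to 21.1 FPKM in Ern1-LKO, against 11.1 FPKM in WT. Its log2 fold change in the authors' deposited table was 0.93 (implied SE 0.16, q = 0.00343). It was the single call among 34 tested HNF4A targets and among 12 tested FOXA targets. Those calls were 2.94% and 8.33% of the 2 lists, against 2.74% of all tested loci. At an unadjusted p under 0.05, 3 of the HNF4A targets were higher and 3 lower, and 2 of the FOXA targets were higher and 1 lower.

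Each other list added 1 or 2 calls. With Cyp7a1, 9.52% of the tested C/EBP targets and 14.3% of the tested ONECUT1 targets were called. Of the tested NR5A2 and PROX1 targets 21.4% were called, against 2.74% of all tested loci. At an unadjusted p under 0.05 in the authors' Cuffdiff test, 5.74% of all tested loci were higher and 4.53% lower. Among 21 tested C/EBP targets Orm1, an acute phase plasma protein, was lower, at 684 FPKM in Ern1-LKO and 1002 FPKM in WT (q = 0.047 in the authors' deposited table), and 3 of the 21 were higher and 4 lower at an unadjusted p under 0.05. Among 14 tested ONECUT1 targets, of which Hnf4a and Foxa2 are themselves factors of the set, 2 were called, Cyp7a1 and Cyp2a5, and 4 were higher, Foxa2 included, and 3 lower at an unadjusted p under 0.05. Cyp2a5, which shares sequence with its paralog Cyp2a4 and is uncertain for that reason, was at 306 FPKM in Ern1-LKO and 201 FPKM in WT (q = 0.0258 in the authors' deposited table). Among 14 tested targets of NR5A2 and PROX1 3 were called, Cyp7a1, Nr0b2 and Plk3, and 2 were higher and 2 lower at an unadjusted p under 0.05. Plk3, a kinase that NR5A2 induces under endoplasmic reticulum stress, was at 66.8 FPKM in Ern1-LKO and 28.7 FPKM in WT (log2 fold change 1.22, implied SE 0.18, q = 0.00343 in the authors' deposited table).

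**Figure D5:**
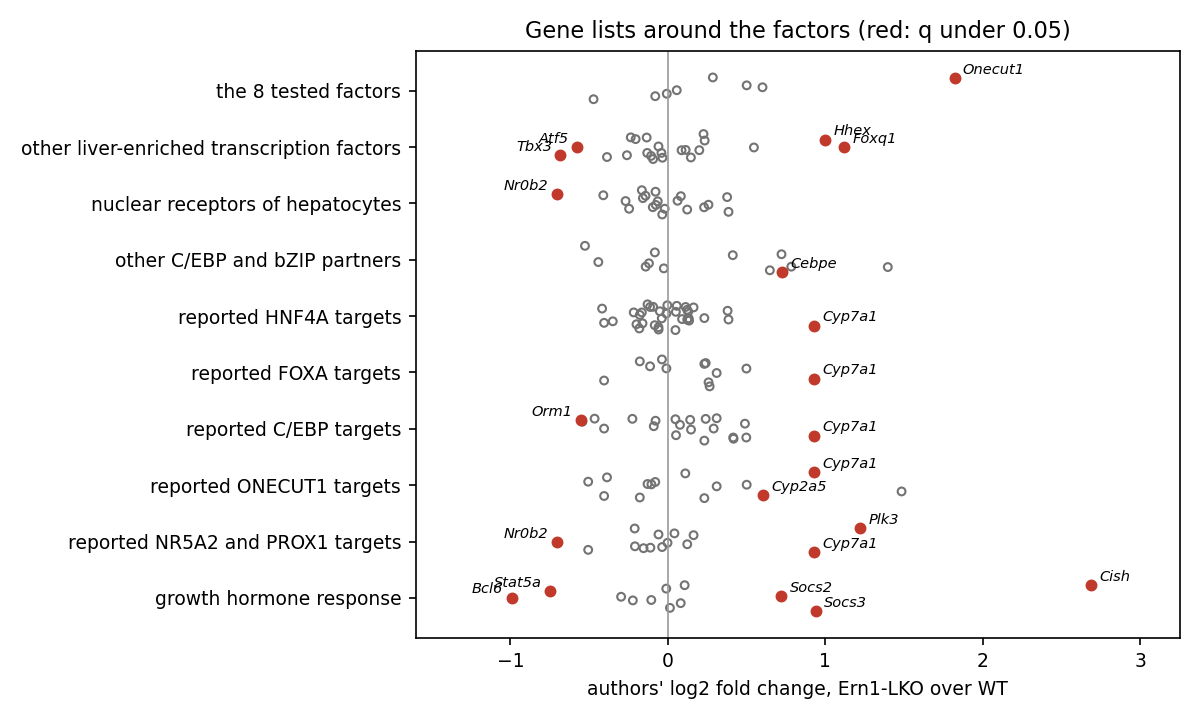
The authors' log2 fold change of Ern1-LKO over WT for each tested gene of the factor, target and growth hormone response lists, 1 point a gene, spread vertically for view; red and named where q was under 0.05. Cyp7a1 appears on all 5 target lists, and Onecut1 and Cish lie farthest to the right.

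Growth hormone response genes are given because growth hormone induces Onecut1 in rat liver. Any link between them and the Onecut1 value was not tested. Of 12 tested, 3 were called higher and 2 lower, or 41.7% against 2.74% of all tested loci (1.58% called higher and 1.16% lower). Cish, which restrains growth hormone signalling, was at 23.4 FPKM in Ern1-LKO and 3.64 FPKM in WT, Socs2 at 7.52 and 4.56 FPKM, and Socs3 at 4.42 and 2.30 FPKM. Bcl6 was lower, at 6.98 FPKM in Ern1-LKO and 13.9 FPKM in WT, as was Stat5a, at 3.20 and 5.38 FPKM. Ghr, the receptor, and Igf1, the circulating mediator of the hormone, were not called, at 322 and 142 FPKM in Ern1-LKO and at 319 and 132 FPKM in WT. The list's median difference was 0.0017 on the log2(FPKM + 1) scale, against -0.0084 over all tested loci.

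Markers check the tissue and the cells that could share these factors. Of 17 tested hepatocyte markers none was called, and 0 had an unadjusted p under 0.05 in the authors' Cuffdiff test. Their summed level was 45325 FPKM in Ern1-LKO and 45230.5 FPKM in WT; Alb is left out because the authors' table marks it HIDATA, with no estimate made, and its listed 0 is not a level. The highest of them, Apoa1 and Ahsg, were at 10627 and 7232 FPKM in Ern1-LKO and at 11069 and 6599 FPKM in WT. None of 8 tested fetal liver and progenitor genes was called, and 0 had an unadjusted p under 0.05. Besides Spp1, the highest of them was Cd24a, at 1.60 FPKM in Ern1-LKO and 1.36 FPKM in WT. Afp stood at 1.44 FPKM in Ern1-LKO and 1.19 FPKM in WT, and Lin28b and Igf2bp1 were listed at 0 in both. Pancreas makes Foxa2, Onecut1 and Nr5a2. Of its 20 acinar markers, 17 were listed at 0 in Ern1-LKO and 6 in WT. Of the 10 that were tested 5 were called lower, or 50% against the 1.16% of all tested loci called lower. These were Cela3b, Pnlip, Prss2, Try4 and Try5, all listed at 0 in Ern1-LKO and at 0.43 to 0.74 FPKM in WT. Ctrb1 and Clps were also listed at 0 in Ern1-LKO, and stood higher in WT, at 1.41 and 1.12 FPKM. Neither was called (q = 0.632 and 0.685 in the authors' deposited table). The sum of the 20 was 60.8 FPKM in Ern1-LKO and 56.1 FPKM in WT, most of it Cela1 (58.5 and 46.4 FPKM).

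Adipocytes and macrophages make C/EBP factors. All 7 tested adipocyte markers lay above WT, 4 of them at an unadjusted p under 0.05. Of the 7, 1 was called, or 14.3% against 2.74% of all tested loci. This was Retn, at 2.06 FPKM in Ern1-LKO and listed at 0 in WT. Adipoq, Cfd and Plin1 were at 1.42, 7.66 and 0.64 FPKM in Ern1-LKO and at 0.046, 0.17 and 0.0067 FPKM in WT, and none of the 3 was called. The summed level was 2206 FPKM in Ern1-LKO and 1827 FPKM in WT, nearly all of it Car3, which hepatocytes also make. Of 12 Kupffer cell and macrophage markers none was called, 2 were higher at an unadjusted p under 0.05, 11 lay above WT, and the sum was 451 FPKM in Ern1-LKO and 419 FPKM in WT. Cd68 and Lyz2 were highest, at 150 and 49.6 FPKM in Ern1-LKO and at 163 and 41.4 FPKM in WT. Stellate cell and fibroblast markers were higher, with 5 of 11 called, or 45.5% against 2.74% of all tested loci. All 11 lay above WT, 8 of them at an unadjusted p under 0.05 in the authors' Cuffdiff test. Their sums were 104 FPKM in Ern1-LKO and 68.8 FPKM in WT. Most of each sum was Dcn, which was not called, at 56.6 FPKM in Ern1-LKO and 41.7 FPKM in WT. Of those called, Acta2 and Col1a1 were at 5.86 and 3.66 FPKM in Ern1-LKO and at 1.21 and 1.38 FPKM in WT. Col1a2, Col3a1 and Lum were at 4.60, 9.18 and 3.99 FPKM in Ern1-LKO and at 2.30, 4.62 and 2.26 FPKM in WT. The part of these cells in the values of the 9 factors was not tested.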

How the data were processed

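RNA came from frozen liver, per the labels' protocols, and 2 libraries per genotype were prepared with the NEBNext Ultra kit. Per the submitters' processing notes, the tools were Cufflinks 2.2.1, TopHat2 2.0.14, FastQC 0.11.3 and bcl2fastq, and the build mm10. The sources used here do not give their roles, the annotation, the scaling between libraries or any use of strand. Per the file headers, the deposited values are Cuffdiff output: an FPKM for each genotype, a log2 fold change of Ern1-LKO over WT, a test statistic (a score with a sign), a p-value and a q-value per locus. FPKM values keep no read depth, so depth is unknown and no counting interval or floor was computed.

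No test across animals could be run, so the authors' q was used, over 13320 tested loci. The implied SE is the size of the log2 fold change divided by that of the test statistic and multiplied by ln 2. Its z-values and those of the deposited p-values had a median ratio of 1.02 (5th to 95th percentile 0.99 to 1.07 over 11634 loci). Loci of the largest p and those at the smallest p, Onecut1 among them, were left out, so the check does not cover the Onecut1 interval. Intervals at 95% are normal and carry the authors' model of the spread between 2 libraries a genotype, which the titles call biological replicates.

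The members, the gene lists and the tests were chosen with earlier results of these data known. The genes named are the 9 members, the called genes of each list or, where it had none, its highest, and the called genes nearest to a called member; other genes were chosen after their values were seen. Some list genes are not reported here by name. Where a symbol had several rows, the tested row of higher WT FPKM was used. List medians use log2(FPKM + 1), which understates the change of low genes. Table starts were raised by 1 to be 1-based. Gene models are GENCODE M21, and promoters are RefSeq, GRCm38.p6. The normal approximation used below, its adjustment and the centring were tested on simulated data with normal errors, which does not check the authors' q. Work was done in Python 3.11.15 with matplotlib 3.10.9, scipy 1.17.1, pandas 2.3.3 and numpy 2.4.6.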

Additional observations from a re-analysis of the deposited data

How the results depend on the processing

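Onecut1 passed a q under 0.01 and a 2-fold minimum, which its deposited q of 0.00343 and log2 fold change of 1.82 already fix. It remained called with a filter at 1 FPKM and under both normal approximations, with q between 7.1e-06 and 0.00316. The pseudocounts, which do not enter the authors' test, gave it log2 differences of 1.67 to 1.80. After centring on the median of expressed loci (a shift of -0.02), with p from a normal approximation, Foxa1 passed at 0.62 (q = 0.0427), so that 2 members were called higher, and Nr5a2 moved to 0.016. The same approximation without the shift, chosen after seeing the data, gave Foxa1 q = 0.0562. On the factor, target, growth hormone and fetal lists, 9 genes outside the members were called higher and 6 lower. Of all tested loci, 2.74% were called. For these lists a q under 0.01 left 6 higher and 3 lower, and a 2-fold minimum left 4 higher and 0 lower. The filter at 1 FPKM gave 10 higher and 7 lower. The normal approximation gave 12 higher and 6 lower with centring, and 11 and 8 without it. Over the whole table, a q under 0.01 left 124 higher and 97 lower, and a 2-fold minimum 107 and 58. The median of the ONECUT1 target list, -0.0052 with a pseudocount of 1, was 0.0027 with 0.5 and 0.012 with 0.1. A filter at 1 FPKM, with q adjusted again over the loci kept, changed no member's call. Keeping single-gene loci alone reused the deposited q, so it could not change the q of a member. No paired analysis was possible because each genotype has a single pooled column, which also kept any replicate from being left out or taken as a block.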

Other observations

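The second Foxa3 row has the same coordinates as the first and stood at 1.69 FPKM in Ern1-LKO and 1.20 FPKM in WT (q = 0.999 in the authors' deposited table). Within 50 rows of it, all 99 single genes matched to GENCODE lie on the plus strand, while all 89 within 50 rows of the main Foxa3 row lie on the minus strand, the strand of Foxa3. Among single-gene loci of the table, 82 pairs of symbol and coordinates occur at least 2 times. The strand of the rows around them was looked at for Foxa3 alone.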
